A study of Mus musculus with 9 samples.

Results

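A group of 10 genes of the natriuretic peptide system were examined in mouse heart and skeletal muscle. They are the peptide genes Nppa, Nppb and Nppc, the processing enzymes Corin and Furin, the receptors Npr1, Npr2 and Npr3, the cGMP-dependent protein kinase Prkg1, and Ostn, which encodes the myokine Musclin. They were taken by gene symbol, with earlier results of these data known. They make up 10 of the 24537 genes of the table that compares sham quadriceps with sham heart. A second table, which compares quadriceps after transverse aortic constriction (TAC) with sham quadriceps, lists 587 genes, and 1 of the 10, Ostn, is among them. The study filtered for secreted factors by an annotation to the extracellular region, and the creatine kinase gene Ckm and the endothelial marker Pecam1 are listed too.

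RNA sequencing was done on 9 libraries of C57Bl6 mice, with 3 libraries each of sham heart, sham quadriceps and TAC quadriceps. By the series description, mice were 8 weeks old when a constriction was placed around a 27 gauge needle, or when the sham operation was done, and tissue was taken 12 weeks later. TAC, which raises the pressure load on the left ventricle, was studied in quadriceps alone, and TAC hearts were not analysed here. The libraries of the heart table held from 23383452 to 38382751 counts, summed over transcripts. Cardiac Myh6, a myosin heavy chain, had from 768767 to 933029 counts in the heart libraries and from 59 to 82 in the quadriceps libraries, whereas the fast skeletal myosin Myh4 had from 32 to 50 in heart and from 559634 to 726121 in quadriceps, as the tissue labels say. In tissue RNA, fewer cells of a type cannot be told apart from less RNA per cell.

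Atrial natriuretic peptide (Nppa) and brain natriuretic peptide (Nppb) are cardiac hormones that are made as precursors, whereas C-type natriuretic peptide (Nppc) acts mostly near the cells that release it. Corin, a membrane serine protease of cardiomyocytes, and Furin, a widespread convertase, cleave the precursors. The peptides raise cGMP through the guanylyl cyclase receptors NPR-A (Npr1) and NPR-B (Npr2), cGMP activates the kinase encoded by Prkg1, and NPR-C (Npr3), which lacks a cyclase domain, removes the peptides from the tissue. Musclin carries a stretch that resembles the peptides, binds NPR-C and thereby competes with them for clearance.

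The resemblance between Musclin and the peptides is visible in the coding sequences. The following stretches of 51 bases are shown because they code for the receptor-binding ring of brain and C-type natriuretic peptide and for the matching part of Musclin. They are lined up on the codons at the core of the ring motif, which occur 1 time in frame in each coding sequence. Capitals mark the 19 positions at which all 3 genes have the same base.
Nppb: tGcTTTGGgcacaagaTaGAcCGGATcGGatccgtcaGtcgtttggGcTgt
Nppc: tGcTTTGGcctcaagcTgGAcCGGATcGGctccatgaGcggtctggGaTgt
Ostn: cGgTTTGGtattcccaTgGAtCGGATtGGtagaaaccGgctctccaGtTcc

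In the GENCODE vM21 annotation of GRCm38, the build also called mm10, these stretches lie in coding exons. The stretch of Nppb is in exon 2 of 3 (chr4:147986464-147986514, plus strand), that of Nppc in exon 2 of 3 (chr1:86669667-86669717, minus strand) and that of Ostn in exon 4 of 5 (chr16:27346896-27346946, plus strand). Nppb and Nppc had 40 identical bases (78.4%), and Ostn matched Nppb at 23 positions (45.1%) and Nppc at 22 (43.1%). The stretches were found by their core codons, so matches within those codons were largely set in advance. No share of matches for unrelated stretches was computed.

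Levels are first given per transcript length, as RPKM (counts scaled to the transcript's length in kilobases and to the library's total), since only such values can be set side by side between genes. In sham heart, the RPKM level of Nppa was 526 ± 215 (SD, n = 3), that of Nppb 119 ± 26.9 (SD, n = 3) and that of Corin 26.9 ± 5.98 (SD, n = 3). Furin followed with an RPKM level of 10.2 ± 0.393 (SD, n = 3), Npr2 with 7.63 ± 0.356, and Npr1 with 2.92 ± 0.577. Npr3 (1.98 ± 0.113 RPKM) and Prkg1 (1.62 ± 0.373 RPKM) were next, and the ranges of these neighbours overlapped. Ostn (0.0143 RPKM on average) and Nppc (0 in every heart library) were last. The ranges of the other neighbouring pairs in this order did not overlap, apart from the pair of Ostn and Nppc.

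In sham quadriceps the order was different. Npr2 had the highest RPKM level at 5.86 ± 0.244 (SD, n = 3), above Prkg1 at 3.19 ± 2.16 and Ostn at 2.80 ± 0.333. Prkg1 and Ostn overlapped with each other. Furin (1.98 ± 0.148 RPKM) and Npr1 (1.20 ± 0.159 RPKM) followed and did not overlap with their neighbours in the order of means, although the lowest Prkg1 library (1.15 RPKM) lay below Furin. Npr3 (0.646 ± 0.255 RPKM), Nppa (0.383 ± 0.249 RPKM), Nppc (0.147 ± 0.0588 RPKM), Nppb (0.0499 ± 0.0558 RPKM) and Corin (0.0152 ± 0.0165 RPKM) each overlapped with the next in line. Musclin mRNA was thus above the convertase in muscle, while the transcripts of the 3 peptides were low.

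**Figure D1:**
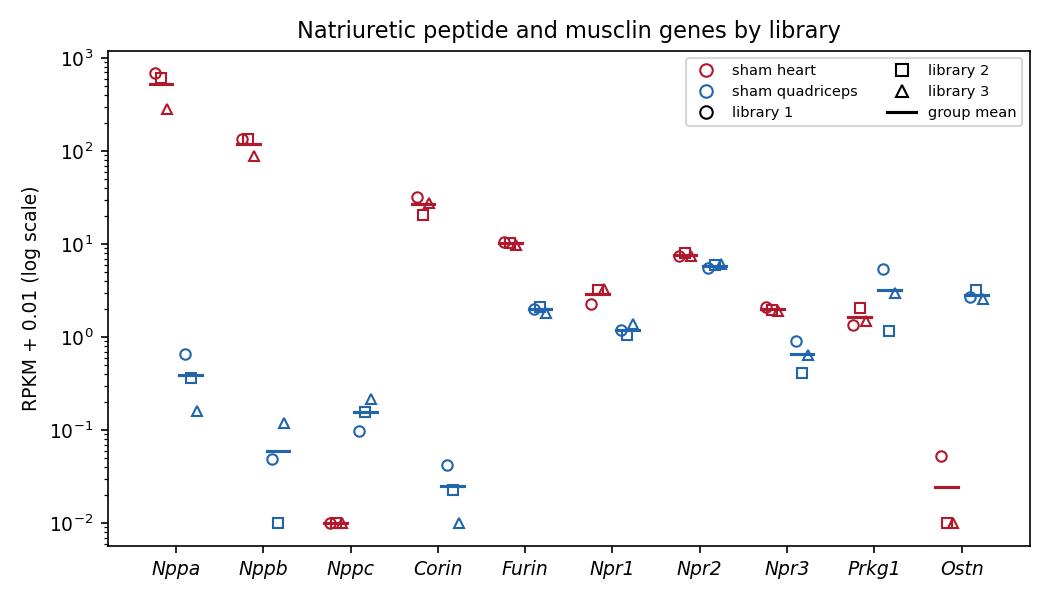
RPKM plus 0.01, on a log scale, of the 10 genes in the 3 sham heart (red) and 3 sham quadriceps (blue) libraries, with the group mean as a line. Nppa, Nppb and Corin are high in heart and near the bottom in quadriceps, Ostn shows the opposite, and the receptors differ far less between the tissues.

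To compare the tissues, the raw counts of sham quadriceps and sham heart were scaled by TMM, which centres the fold changes of most transcripts near 0, and compared by the quasi-likelihood test of edgeR. The p-values were adjusted by the Benjamini-Hochberg method over all 24280 tested transcripts. By an adjusted p under 0.05, 9 of the 10 genes could be tested; 3 were higher in quadriceps, where 32.2% of all tested transcripts were, and 6 were higher in heart, where 34.4% were. Nppc had too few counts for the filter. The study called genes higher in quadriceps where the log2 fold change exceeded 2 and the unadjusted p was under 0.05. With that limit applied here in both directions, 1 member (Ostn) was higher in quadriceps (7.0% of all tested transcripts) and 3 (Nppa, Nppb and Corin) were higher in heart (8.64%). On the TMM scale, 8 of the 9 did not overlap between the tissues, all but Npr1, where 72.6% of all tested transcripts did not (34.2% with quadriceps above and 38.3% with heart above). With 66.6% of all transcripts called in either direction, being called is not particular to these genes. The median log2 fold change (quadriceps over heart) of the 9 genes was -0.88, against -0.06 over all tested transcripts. Scaling by library totals in place of TMM moved the median of all transcripts to -0.80 and left 1 of the 9 genes higher in quadriceps and 7 higher in heart. Changes of under about 1 on the log2 scale therefore depend most on the scaling, and both values are given for members with such changes. The call of a larger change, that of Prkg1 (1.68), depended on it as well. Nothing in the labels says whether libraries came from separate mice, so p-values measure the spread between these libraries.

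**Figure D2:**
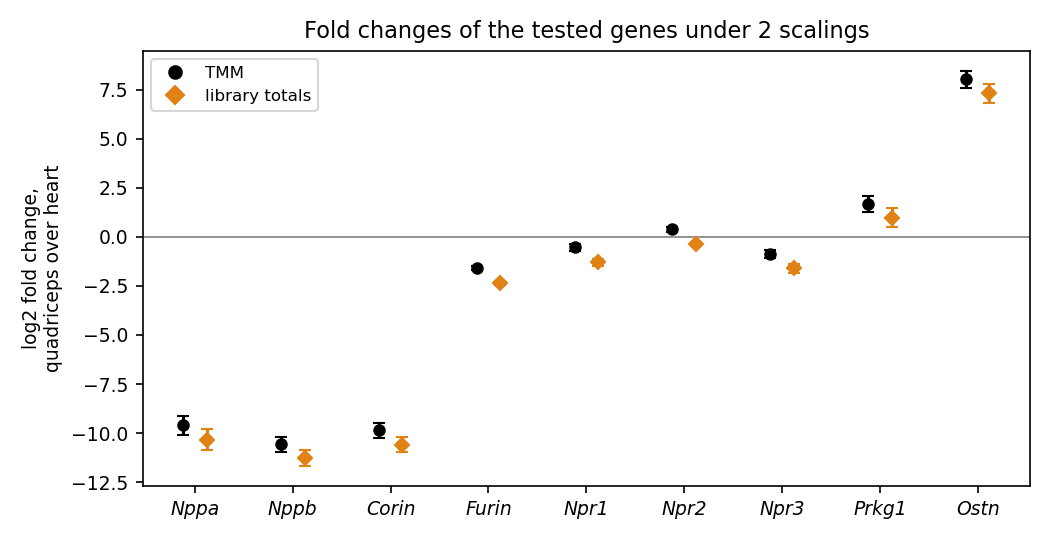
Log2 fold change of quadriceps over heart with its standard error for the 9 tested genes, after TMM scaling (black circles) and after scaling by library totals (orange diamonds). Nppa, Nppb and Corin lie below -9 and Ostn above 7 under both scalings, while Npr2 changes sign.

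Among the ligands, Nppa was by far the most abundant in heart. Its transcript (NM_008725) gave 21763, 20012 and 8000 counts in the 3 hearts, against 18, 10 and 3 in the 3 muscles. The groups were far apart, and heart library 3 held fewer counts than the other two. Over the pooled counts, and after TMM scaling, heart was 784-fold above quadriceps (95% counting interval 552 to 1154). The fitted log2 fold change was -9.59 ± 0.49 (SE) with an adjusted p of 2.18e-07 from edgeR's quasi-likelihood test. Nppa lies on the plus strand at chr4:148000722-148002079, and an antisense gene, Gm13054, covers 61.5% of its exonic bases. Whether reads were counted by strand is not stated, so reads of these overlapping genes could not be told apart. Antisense exons covered at most 12.9% of the exonic bases of any other member, the highest being Ostn.

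Nppb (NM_008726) had 3859, 4043 and 2271 counts in heart, against 1, 0 and 2 in quadriceps. Every heart library was far above every quadriceps library, with heart library 3 again the lowest. The pooled ratio of heart over quadriceps was 1656, and its counting interval was wide (567 to 8033), since quadriceps held 3 counts in all. The fitted log2 fold change was -10.56 ± 0.39 (SE), with an adjusted p of 2.66e-08 from edgeR, and -11.59 without quadriceps library 3, which carried 2 of the 3 counts. The other Nppb transcript row, NM_001287348, gave -10.53.

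Nppc (NM_010933), the ligand of NPR-B, showed the opposite arrangement at very low depth. It had 0 counts in each of the 3 heart libraries and 3, 5 and 5 counts in the quadriceps libraries. The groups did not overlap. Set against a floor of 3 counts over the heart group, and with the 13 muscle counts taken without error, Nppc was at least 8.87-fold higher in quadriceps after TMM scaling and at least 5.28-fold higher with library totals. With the counting error of both groups (95% interval), heart was at most at 0.160 of the quadriceps level after TMM scaling. It was left out of the test by the filter of more than 5 counts in at least 2 libraries. Without a count filter edgeR gave it an adjusted p of 0.00228 over 29615 transcripts. At this depth, Nppc mRNA was not detectable in whole heart, which is not the same as absent.

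Nppb and Nppa lie next to each other on chromosome 4 and point the same way, with 13516 bases between them. The promoters of both genes are shown in part, since these transcripts were high in heart together. Both sequences come from RefSeq (GRCm38.p6) and read towards the start of transcription. Capitals mark matches, on either strand, to the motifs TATAAA (the TATA box), GATAA (the GATA motif), CATTCC (the M-CAT motif) and AAGTG (the core bound by NK homeobox factors), which do not overlap here. The first is the stretch of 250 bases before the start of Nppa (chr4:148000472-148000721, plus strand), and the second covers 30 bases, from 100 to 71 before the RefSeq start of Nppb (chr4:147985800-147985829, plus strand). The Nppb stretch holds the 2 GATAA matches of its window. The CATTCC and TATAAA matches of Nppb, 105 and 31 bases before the start, lie outside it. GENCODE starts Nppb further upstream, at 147985788, so that the Nppb stretch lies in an untranslated part of exon 1 there.
Nppa: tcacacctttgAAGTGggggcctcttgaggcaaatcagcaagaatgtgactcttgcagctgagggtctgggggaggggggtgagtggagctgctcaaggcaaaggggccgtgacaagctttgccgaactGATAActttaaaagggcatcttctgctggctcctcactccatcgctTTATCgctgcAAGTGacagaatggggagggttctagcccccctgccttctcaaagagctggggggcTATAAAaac
Nppb: gcagctGATAAatcagaGATAAccccaccc

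Within 250 bases before their starts, Nppa and Nppb each held 2 GATAA matches and 1 TATAAA match. Of the 32851 promoter windows of the same length in the RefSeq table, 22.6% held at least 1 GATAA, 12.4% a TATAAA, 12.6% a CATTCC and 40.7% an AAGTG. Nppb had 1 CATTCC match and Nppa 2 AAGTG matches. The motifs were not particular to these genes, as Nppc and Furin each held 1 TATAAA match. Furin also held 4 AAGTG matches, in the same window as its TATAAA match. Prkg1 held 1 GATAA match in 1 window and 1 AAGTG match in another window. Corin, which was high in heart as well, had no match to any of the 4 motifs in its window. Promoter windows, 11 in all, were matched for 9 of the 10 genes, all but Ostn, and Furin and Prkg1 had more than 1. Such matches are letters in a window and show no binding.

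Corin (NM_001122756) followed the cardiac peptides. It had 5619, 3688 and 4301 counts in heart, against 5, 2 and 0 in quadriceps. The groups were widely separated, and heart library 2, not library 3, was the lowest. The pooled ratio of heart over quadriceps was 950 (95% counting interval 461 to 2362). The fitted log2 fold change was -9.86 ± 0.37 (SE) with an adjusted p of 3.08e-08 (edgeR), and -10.85 without quadriceps library 1, which held 5 of the 7 muscle counts. In the same quadriceps libraries Myh6 had 82, 72 and 59 counts and the cardiac troponin Tnni3 12, 8 and 3. The part of such cardiac transcripts in the few counts of Nppa, Nppb and Corin in muscle was not tested.

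Furin (NM_011046) had 1680, 1706 and 1392 counts in heart, against 284, 301 and 184 in quadriceps. After TMM scaling these were 33.9 ± 1.43 CPM (SD, n = 3) in heart, where CPM stands for counts divided by the TMM-adjusted library size, and 11.1 ± 1.25 CPM (SD, n = 3) in quadriceps. The groups did not overlap, with a log2 fold change of -1.60 ± 0.11 (SE) and an adjusted p of 1.81e-06 (edgeR), and of -2.36 with library totals. Corin had 7 counts in all of the muscle libraries, whereas the convertase Furin was expressed in both tissues and 3.04-fold higher in heart on the CPM scale.

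The 3 receptors were measured in both tissues, and their differences were small beside those of the peptides. Npr1 (NM_008727), the receptor of the cardiac peptides, had 338, 493 and 444 counts in heart, against 155, 140 and 129 in quadriceps. On the CPM scale this was 7.10, 9.80 and 10.3 in heart and 5.70, 5.85 and 7.29 in quadriceps. The groups overlapped, because quadriceps library 3 lay above heart library 1. Npr1 was higher in heart with a log2 fold change of -0.54 ± 0.17 (SE) and an adjusted p of 0.0182 (edgeR), and by more with library totals (-1.29, adjusted p 0.00023). With TMM the call rested on single libraries: the adjusted p was 0.0673 without heart library 2, 0.0738 without heart library 3 and 0.0579 without quadriceps library 1.

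Npr2 (NM_173788), the receptor of C-type natriuretic peptide, had 1009, 1120 and 885 counts in heart, against 663, 711 and 515 in quadriceps. On the CPM scale it was at 21.2, 22.3 and 20.6 in heart and at 24.4, 29.7 and 29.1 in quadriceps, without overlap. The log2 fold change was 0.38 ± 0.11 (SE; adjusted p 0.0123, edgeR) with TMM, but -0.38 (adjusted p 0.00453) with library totals, so that the direction of Npr2 turned with the scaling. Without heart library 3 the adjusted p with TMM was 0.0518. No direction can be given for Npr2.

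Npr3 (NM_008728), the clearance receptor to which Musclin binds, had 540, 511 and 435 counts in heart, against 205, 91 and 102 in quadriceps. This was 11.3, 10.2 and 10.1 CPM in heart and 7.54, 3.80 and 5.76 CPM in quadriceps. Every heart library was above every quadriceps library, and the muscle values were the more scattered. Npr3 was higher in heart with a log2 fold change of -0.88 ± 0.21 (SE) and an adjusted p of 0.00417 (edgeR), and of -1.61 with library totals. The adjusted p stayed at or below 0.0164 over the alternatives. The other transcript rows of Npr3, 2 in number, share nearly all reads with this one and gave -0.88 and -0.85.

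Because the scaling moved all fold changes together, the balance between receptors was also taken within each library, where it cancels. The ratio of Npr2 to Npr1 in RPKM was 3.32, 2.53 and 2.22 in heart and 4.76, 5.65 and 4.44 in quadriceps. Npr2 exceeded Npr1 in every library, and the groups did not overlap. The ratio of Npr3 to the sum of Npr1 and Npr2 in RPKM was 0.216, 0.172 and 0.178 in heart and 0.134, 0.0571 and 0.0849 in quadriceps, again without overlap. The ratio of Npr3 to Npr1 overlapped between the tissues (0.572 to 0.933 in heart and 0.380 to 0.773 in quadriceps). Of the 6 ratios compared, 4 had no overlap. Among single transcripts on the TMM scale 72.6% had none, but no such share was computed for ratios. Several of the ratios share a gene, so they are not separate results. Each of the 4 had an exact two-sided permutation p of 0.1, the smallest that 3 against 3 libraries allow, and 0.15 after Benjamini-Hochberg adjustment. None of the ratios can therefore pass a threshold of 0.05 in this design.

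**Figure D3:**
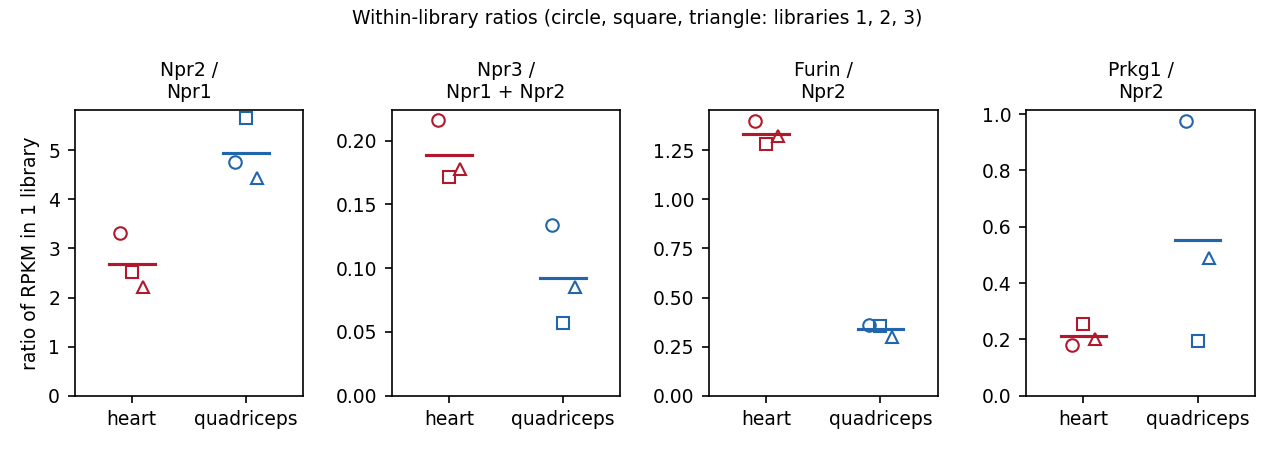
Ratios of RPKM values taken within each library, for 3 sham heart (red) and 3 sham quadriceps (blue) libraries, with the mean as a line. Npr2 over Npr1 is higher, and Npr3 over the sum of Npr1 and Npr2 as well as Furin over Npr2 are lower, in all quadriceps libraries, while Prkg1 over Npr2 overlaps.

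Prkg1 (NM_001013833), the kinase downstream of cGMP, varied strongly between the muscle libraries. It had 348, 547 and 339 counts in heart, against 1238, 264 and 481 in quadriceps. On the CPM scale this was 7.31, 10.9 and 7.89 in heart and 45.5, 11.0 and 27.2 in quadriceps. The groups did not overlap on this scale, but quadriceps library 2 lay just above the highest heart library, and on the RPKM scale the groups overlapped. The log2 fold change was 1.68 ± 0.41 (SE) with an adjusted p of 0.00531 (edgeR) after TMM. With library totals it was 0.97 with an adjusted p of 0.0922, and without quadriceps library 1, which had the most Prkg1, it was 1.13 with TMM (adjusted p 0.0123). The other Prkg1 row, NM_011160, gave 1.78.

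Markers of other cells also differed between the quadriceps libraries. The summed level of 4 smooth muscle and pericyte markers (Myh11, Rgs5, Pdgfrb and Cspg4) was 396, 263 and 316 CPM in quadriceps libraries 1, 2 and 3, and that of 5 fibroblast markers (Col1a1, Col3a1, Dcn, Pdgfra and Postn) was 516, 364 and 415 CPM. Rgs5 carried most of the first sum, at 348, 223 and 258 CPM, whereas Myh11 (29.1, 21.0 and 35.4 CPM), Pdgfrb and Cspg4 were highest in library 3, so that the order of Prkg1 and Npr3 was not that of the whole list. Of the fibroblast markers, Dcn (337, 248 and 246 CPM) and Pdgfra were lowest in library 3. The 5 adipocyte markers (Adipoq, Plin1, Lep, Cfd and Retn) summed to 115, 50.2 and 14.3 CPM, and each was highest in library 1. In heart the smooth muscle and pericyte sum was 350, 387 and 343 CPM. The summed level of 5 endothelial markers (Pecam1, Cdh5, Kdr, Tie1 and Emcn) was 434, 447 and 470 CPM in heart. In quadriceps it was 139, 132 and 150 CPM. Each of the 5 was called higher in heart, where 34.4% of all tested transcripts were, with log2 fold changes from -1.33 (Emcn) to -2.13 (Kdr). The part of all these cells in the values of Prkg1, Npr3, Npr1 and Furin was not tested.

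The heart libraries also differed among themselves in atrial markers. Myl7, the atrial regulatory myosin light chain, had 2075, 164 and 3 counts in heart libraries 1, 2 and 3, and Sln (sarcolipin) had 838, 48 and 2. Myl4, the atrial essential light chain, had 6811, 756 and 91 counts, and Dkk3 had 1024, 225 and 68. Bmp10, a further atrial marker, had 0, 0 and 1. The 5 markers together were at 226, 23.7 and 3.84 CPM, whereas Myl2, the ventricular light chain, had 231598, 264611 and 212150 counts. Nppa, at 457, 398 and 186 CPM, and Nppb, at 81.0, 80.4 and 52.9 CPM, were lowest in the library with the least of these markers. Corin, at 118, 73.3 and 100 CPM, did not share that order. In RPKM, Nppa exceeded Nppb 5.12, 4.49 and 3.20 times in the 3 heart libraries. The part of atrial tissue in the spread of Nppa was not tested.

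**Figure D4:**
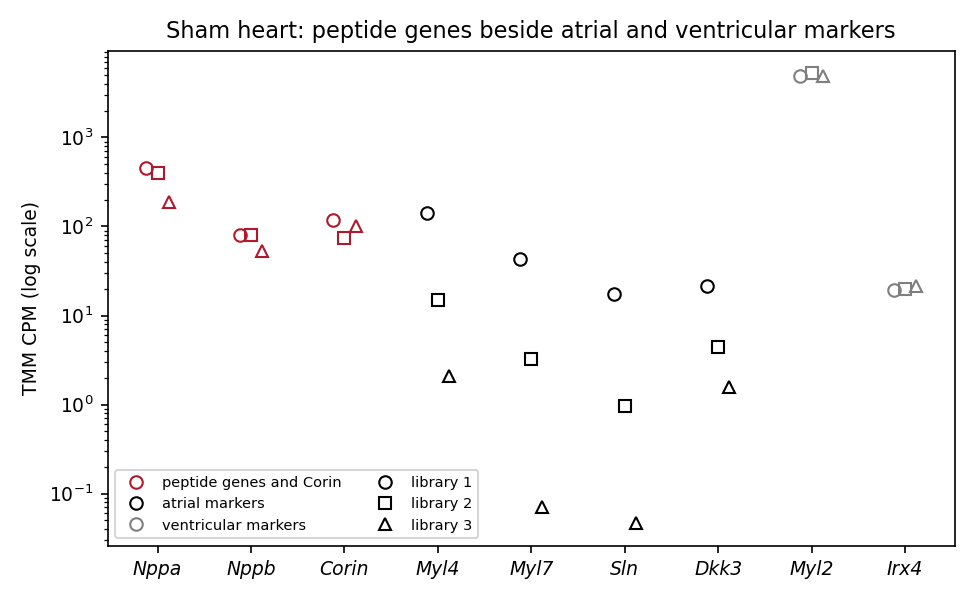
TMM-scaled CPM on a log scale in the 3 sham heart libraries, for Nppa, Nppb and Corin (red), 4 atrial markers (black) and 2 ventricular markers (grey). The atrial markers spread over more than an order of magnitude between libraries, Nppa runs from 186 to 457 CPM, and the ventricular markers are level.

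Ostn (NM_198112; chr16:27307489-27351212, plus strand) was the member with the clearest muscle expression. It had 2, 0 and 0 counts in heart, against 110, 132 and 75 in quadriceps, or 4.04, 5.52 and 4.24 CPM in quadriceps. The groups did not overlap, and the 3 muscle libraries were close to each other. Over the pooled counts and after TMM scaling, quadriceps was 324-fold above heart, with a wide counting interval (89.1 to 2691), as heart held 2 counts in all. The fitted log2 fold change was 8.02 ± 0.45 (SE; adjusted p 4.57e-07, edgeR), and it was 10.22 without heart library 1, when heart had no count. Ostn is also expressed in bone. Of 5 bone markers, Ibsp had 22, 1 and 0 counts and Bglap 27, 1 and 0 in quadriceps libraries 1, 2 and 3, and Dmp1 had 32, 17 and 14. Ostn was highest in counts in library 2, and in library 3, where Ibsp, Bglap, Bglap2 and Sp7 were at 0 and Dmp1 was at 14, it was at 75 counts. The part of bone in these values was not tested.

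In TAC quadriceps, whose libraries are numbered 1, 2 and 4 in the table, the 3 Musclin values were spread widely. After TMM scaling over the listed genes, Ostn was at 89.4, 133 and 103 normalized counts in sham libraries 1, 2 and 3 and at 22.3, 98.8 and 42.1 in TAC libraries 1, 2 and 4. On this scale TAC library 2 lay within the sham range, and TAC libraries 1 and 4 lay below it. The log2 fold change of TAC over sham was -0.996 ± 0.48 (SE) with an adjusted p of 0.152 (edgeR, 586 genes), which did not pass, whereas 11.9% of the tested genes were called lower and 17.7% higher. Without TAC library 2 it was -1.75 (adjusted p 0.0123). The study called genes changed by TAC at an absolute log2 fold change of at least 1 with an unadjusted p under 0.05. With all libraries, Ostn did not meet that limit (-0.996, unadjusted p 0.0713, edgeR), whereas 12.6% of the tested genes were lower and 11.4% higher by it. In RPKM, which divides by the total of the library, Ostn was at 2.67, 3.17 and 2.54 in sham and at 0.375 and 1.63 in TAC libraries 1 and 2. In RPKM, TAC libraries 1 and 2 thus both lay below every sham library. With library totals of 5 libraries, the log2 fold change of Ostn was -1.47 (adjusted p 0.0722, edgeR). On that scaling the median log2 fold change of all 586 genes was -0.63. The RPKM of TAC library 4 was not used here. Of the 5 fibroblast markers, 4 were listed in this table. Col1a1 went from 678 ± 93.7 (SD, n = 3) normalized counts in sham to 68.3 ± 18.6 in TAC (log2 fold change -3.31, adjusted p 0.000557, edgeR), and Col3a1 (-3.95) and Postn (-3.23) were lower in TAC as well, whereas Dcn was not called (0.17, adjusted p 0.601). Of the endothelial markers, Pecam1 alone was listed, and it was higher in TAC with TMM (0.63, adjusted p 0.0341, edgeR) but not called with library totals (-0.02, adjusted p 0.948). The part of these cells in the values of Ostn was not tested.

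The genes whose values followed Ostn most closely over the 6 quadriceps libraries were found by the root mean square difference of log2(normalized count + 1), each gene centred on its own mean. The closest of 583 candidates were Sema6c, a semaphorin, at 0.226, Wnt5a, a Wnt ligand, at 0.248, Prss23, a serine protease, at 0.286, Ntf5, a neurotrophin, at 0.322, and Serpine2, a protease inhibitor, at 0.322. The median over all candidates was 0.936. Sema6c had 521, 536 and 546 normalized counts in sham and 109, 481 and 281 in TAC. All 5 genes were lowest in TAC library 1 and next lowest in TAC library 4, as Ostn was, and they share the 6 libraries and their scaling. They were picked for closeness to Ostn over these same libraries, so the shared order is no separate result. Wnt5a had log2 fold change -1.24 and an adjusted p of 0.0699 (edgeR), and the adjusted p of the 5 genes ran from 0.0519 to 0.176, so none passed the test.

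**Figure D5:**
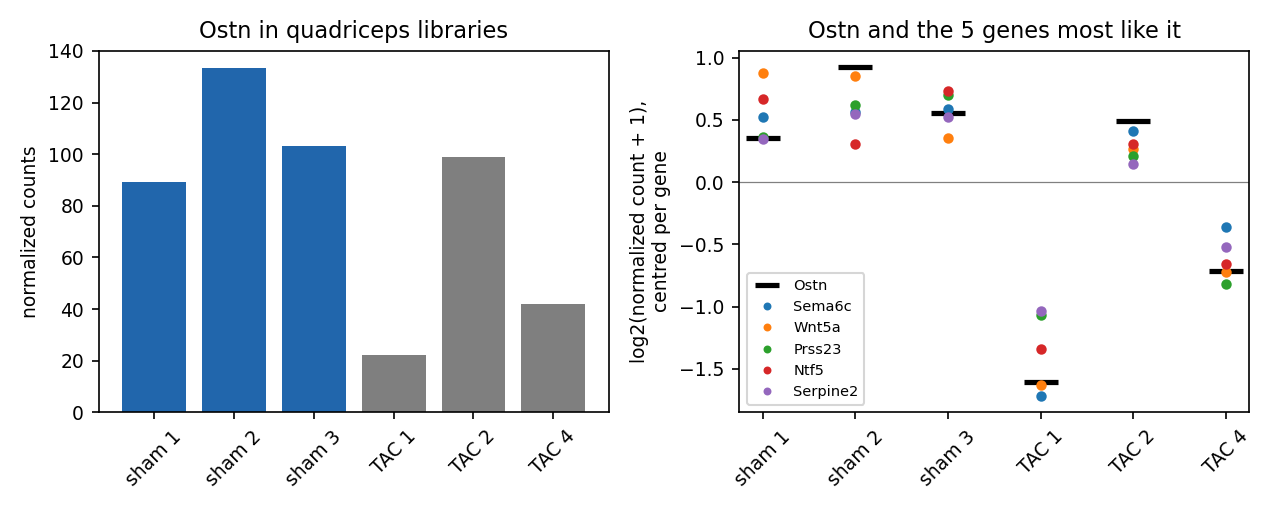
Left, normalized counts of Ostn in 3 sham (blue) and 3 TAC (grey) quadriceps libraries, 1 bar per library. Right, log2(normalized count + 1) centred per gene for Ostn (black bars) and the 5 genes with the smallest difference from it, in which TAC library 1 is the lowest and TAC library 2 is near the sham libraries.

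Beyond the members, a list of 38 genes of peptide breakdown and cGMP signaling was compared between the sham tissues, with 1 transcript per gene. Of the 37 that could be tested, 10 were higher in quadriceps (32.2% of all tested transcripts were), 21 were higher in heart (34.4% were) and 6 did not pass, and Gucy2c, the intestinal guanylin receptor, had no count. With library totals 6 were higher in quadriceps and 27 in heart, against 3241 and 15203 of all 24280 transcripts. The median log2 fold change was -0.78, or -1.51 with library totals, against -0.06 and -0.80 over all transcripts.

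In heart, the largest difference on this list was that of Pln. Pln (phospholamban, the inhibitor of the sarcoplasmic calcium pump and a target of PKA and PKG) had 178449, 184265 and 171315 counts in heart, against 79, 67 and 37 in quadriceps. Pde3a, the cGMP-inhibited phosphodiesterase of the heart, had 1184, 1512 and 1005 counts in heart, against 28, 11 and 15 in quadriceps, with a log2 fold change of -5.05 ± 0.22 (SE; adjusted p 9.14e-08, edgeR). Pde1c, a calmodulin-dependent phosphodiesterase, had a log2 fold change of -6.63 ± 0.19 (SE), Pcsk6, a proprotein convertase, one of -3.10 ± 0.12, and Nos2, the inducible nitric oxide synthase, one of -2.26 ± 0.20.

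In quadriceps, the largest differences were those of Kcnma1 and Nos1. Kcnma1, the calcium-activated BK channel that PKG phosphorylates, had 8, 11 and 7 counts in heart, against 1186, 1110 and 752 in quadriceps (log2 fold change 7.88 ± 0.15, SE). Nos1, the neuronal nitric oxide synthase found at the sarcolemma of muscle fibres, had 18, 14 and 3 counts in heart, against 1380, 1406 and 1164 in quadriceps (7.86 ± 0.30, SE). Prkg2, the second cGMP-dependent kinase, followed with a log2 fold change of 2.56 ± 0.53 (SE) from few counts, 35, 19 and 14 in quadriceps. Ide, insulin-degrading enzyme, which also degrades natriuretic peptides, had 2266, 2312 and 2041 counts in heart, against 4365, 4540 and 4527 in quadriceps (2.10 ± 0.17, SE). Mme, also listed for peptide breakdown, went the other way (-2.06 ± 0.16, SE). It had 761, 832 and 743 counts in heart, against 136, 80 and 61 in quadriceps. Dpp4 was higher in quadriceps (1.20 ± 0.26, SE) but was not called with library totals (0.47, adjusted p 0.180, edgeR). Pde3b, the fat and liver form of phosphodiesterase 3, had 285, 105 and 50 counts in quadriceps, with a log2 fold change of 1.41 ± 0.40 (SE; adjusted p 0.0107) that was 0.69 with library totals (adjusted p 0.195). Its muscle counts were highest in library 1, as the adipocyte markers were, and their part was not tested.

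Of this list, 3 genes were in the TAC table. Ide was at 3548, 4588 and 6224 normalized counts in sham and at 11864, 9189 and 8537 in TAC quadriceps, without overlap, which held for 47.3% of the tested genes. It was higher in TAC with a log2 fold change of 1.04 ± 0.26 (SE; adjusted p 0.0206, edgeR), but 0.52 with library totals of 5 libraries (adjusted p 0.121). The call was also lost without sham library 1 (adjusted p 0.0836), sham library 2 (0.0740) or TAC library 1 (0.0555). Pcsk6 had a mean of 101.5 ± 8.92 (SD, n = 3) normalized counts in sham quadriceps and of 67.5 ± 8.55 (SD, n = 3) in TAC, with a log2 fold change of -0.59 ± 0.23 (SE) and an adjusted p of 0.0873 (edgeR). With library totals of 5 libraries it was -1.18 with an adjusted p of 0.0219. Nos2 was at 31.5 ± 7.81 normalized counts in sham and 31.8 ± 17.2 in TAC, with a log2 fold change of 0.03 ± 0.46 (SE; adjusted p 0.972).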

How the data were processed

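RNA of sham heart, sham quadriceps and TAC quadriceps (3 libraries each) was sequenced after preparation with ScriptSeq v2. The submitters' notes name Trim Galore, STAR, edgeR and mm10. The authors deposited raw counts per RefSeq transcript, and RPKM values, which are those counts divided by transcript length and library total. A read on several transcripts of a gene enters each of them. The deposited fold changes, F and test values of the authors' own comparisons were not used, and 1 library column, the RPKM of TAC library 4, whose number is in no sample title, was left out. Its counts were used as a TAC replicate.

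Rows kept for testing had over 5 counts in 2 or more libraries. They were compared with edgeR 4.0.16 (R 4.3.3; TMM, quasi-likelihood test, Benjamini-Hochberg over the table, threshold 0.05). Standard errors are the log2 fold change over the square root of F. A gene is given by its row with the highest mean count. Alternatives were DESeq2 1.42.0, library totals, other filters, limma 3.58.1 on log2 RPKM, a replicate block and leaving out libraries. Ratios were compared with exact permutation tests. The procedure was tested on simulated data. Counting intervals and floors (95%, 3 counts) cover counting error only. Depth was 23383452 to 38382751 counts in the heart table, and 689630 to 1326011 on the genes listed in the TAC table, over which TMM was computed there.

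The genes named were the 10 members, up to 5 called pathway genes in each direction with the largest change, and those in the TAC table. Mme and Dpp4 were named beside Ide, and the 5 genes most like Ostn (mean of at least 20 counts) were added. Members, lists and markers were chosen with earlier results of these data known. Deviations of same-numbered libraries from their group means showed little correlation (r from -0.043 to 0.061), and the numbers were not taken as pairs. This check cannot show whether libraries came from the same mice.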

Additional observations from a re-analysis of the deposited data

How the results depend on the processing

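Nppa, Nppb, Corin, Furin, Npr3 and Ostn kept their direction and their side of the threshold in the heart comparison under every alternative that could be fitted. With library totals 1 member was higher in quadriceps, as with limma on RPKM at pseudocounts of 0.5, 1 and 0.1. Npr2 turned to -0.38 with library totals and to -0.35, -0.33 and -0.37 with these pseudocounts, and Prkg1 did not pass with any of the 4. With at least 10 counts in every library, 3 members (Furin, Npr1 and Npr3) were higher in heart, since Nppa, Nppb, Corin and Ostn were then not tested. Of the pathway list, 6 genes were higher in quadriceps under the same 4 settings. Over all transcripts, 3241, 3201, 3194 and 3218 were then higher in quadriceps (7828 with TMM) and 15203, 15319, 15322 and 15365 in heart (8354 with TMM), and 4744 and 5059 with 1 transcript per gene, where fewer rows are tested.

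In TAC quadriceps, Ostn was lower in each alternative, and 1 member was called lower with limma on RPKM (5 libraries) at each pseudocount. Leaving out single libraries gave 0 to 1. Over all genes of that table, 20, 17, 16 and 16 were higher with library totals (5 libraries) and the pseudocounts of 0.5, 1 and 0.1 (104 with TMM), and 180, 199, 192 and 198 lower (70 with TMM). Single libraries left out gave 25 to 113 higher and 35 to 102 lower. Nos2, near 0, turned to -0.61, -0.20, -0.12 and -0.51 with these 4 settings, to -0.030 with at least 10 counts in every library, and ran from -0.42 to 0.31 without single libraries. The cause of these shifts was not tested.

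The replicate block changed no call of a member (Npr1 -0.52, Npr2 0.37, Prkg1 1.51 and, over TAC and sham libraries 1 and 2, Ostn -1.16 with adjusted p 0.0604). With the block 56 genes were higher in TAC. By the labels, same-numbered libraries share only a number. Without heart library 1 and quadriceps library 1 together, added after seeing the data, Prkg1 was at 1.003 (adjusted p 0.0526). Depth limits Nppc in heart and the folds of Nppb, Corin and Ostn, each set against few counts.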
